A study of Mus musculus with 6 samples.

Results

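The genes described here are 10 genes of the contractile apparatus and of mural cells, out of 23352 genes listed with an FPKM (fragments per kilobase of transcript, scaled to the mapped reads of the library) in sorted omental stromal cells of mice. They were chosen by name, 6 for contraction (*Acta2*, *Tagln*, *Myh11*, *Cnn1*, *Myl9* and *Des*) and 4 as markers of pericytes and other mural cells (*Pdgfrb*, *Rgs5*, *Cspg4* and *Mcam*), and each symbol was found once. The cells came from the omentum of WT C57BL/6 mice, with no treatment named, and were sorted on CD45, CD140a (PDGFRα), CD105 (endoglin) and a fluorescent aldehyde dehydrogenase (ALDH) substrate into the populations P1–P6. P1, P2 and P3 were CD45-CD140a+CD105+ cells with high, intermediate and low ALDH activity, P4 and P5 were their CD105- counterparts with intermediate and low activity, and P6 was the CD140a-low fraction. Each population is represented by 1 library, and the number and age of the mice behind it are not given in the sources used here. There was thus no replicate error for any value below, no test was possible, and a difference is described by its fold and by a 95% interval that covers counting error only.

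Mural cells wrap the walls of blood vessels: smooth muscle cells around arteries and veins, pericytes around capillaries. Both belong to a wider family of contractile mesenchymal cells that includes myofibroblasts and the fibroblastic reticular cells of lymphoid organs, in which type II myosin pulls on actin bundles. Many smooth muscle genes are switched on by serum response factor (SRF), which binds a short DNA element called the CArG box together with myocardin or a myocardin-related factor, whereas pericytes are recruited to vessels through PDGF-B and its receptor PDGFRβ.

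The CArG box is shown first because it is the sequence element best known to link several of these genes. Windows of 300 bases around the RefSeq start of transcription (GRCm38.p6, 250 bases before and 50 after) were at hand for 7 of the 10 genes, namely *Acta2*, *Cnn1*, *Cspg4*, *Des*, *Mcam*, *Myl9* and *Rgs5*. A full CArG box (CC, 6 bases of A or T, GG, which covers both strands since it is its own reverse complement) occurred in 535 of 32851 mouse windows (1.63%), and among the 7 genes in *Myl9*. It began 161 bases before the *Myl9* start. A looser form, in which 1 of the 6 central bases is C or G, was searched after the sequences had been seen and occurred in 8.5% of all windows. It was present once in *Myl9*, 99 bases before the start, and at 2 places in *Acta2*, 84 and 34 bases before the start, while 0.679% of all windows held 2 or more. Neither form was in the windows of *Cnn1*, *Cspg4*, *Des*, *Mcam* or *Rgs5*. The *Myl9* stretch is the plus strand of chr2:156775214-156775413, upstream of the gene, and the *Acta2* stretches are the minus strand of chr19:34255438-34255467 and chr19:34255388-34255417, which lie in the first exon of the longer GENCODE transcript. Capitals mark the full and the looser CArG boxes.
Myl9 upstream: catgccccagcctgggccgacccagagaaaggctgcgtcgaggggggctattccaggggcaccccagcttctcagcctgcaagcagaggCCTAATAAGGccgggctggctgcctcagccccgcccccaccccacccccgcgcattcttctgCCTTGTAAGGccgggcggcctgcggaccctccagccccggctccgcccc
Acta2 site 1: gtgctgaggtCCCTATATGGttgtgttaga
Acta2 site 2: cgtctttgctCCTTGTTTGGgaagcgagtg

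Sequencing depth, estimated from the steps between low FPKM values, was 53.1 to 61.9 M reads in P1–P5 and 36.8 M in P6. Transcripts of the surface markers CD140a and CD105 followed the gates. *Pdgfra* was at 117 to 154 FPKM in P1–P5 and 5.36 in P6. *Eng*, which encodes CD105, was at 42.6 to 52.4 FPKM in P1–P3 and at most 0.728 elsewhere. *Aldh1a2*, which encodes an ALDH enzyme, followed the ALDH gate only in part. It was at 469, 78.8 and 134 FPKM in P1, P2 and P3, 285 and 145 in P4 and P5, and 209 in P6. The ALDH-intermediate P2 was thus lowest, below the ALDH-low P3. Of the 10 genes, 8 reached 1 FPKM in at least 1 population and 5 did so in all 6. *Cnn1* and *Rgs5* never reached it, and *Cspg4* and *Mcam* reached it in P6 alone. Of the 4 genes taken as mural markers, 3 were therefore below 1 FPKM in every CD140a+ population, while *Pdgfrb* was between 23.7 and 76.9 FPKM there. In bulk libraries such as these, fewer cells of a type and less RNA per cell cannot be told apart.

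**Figure D1:**
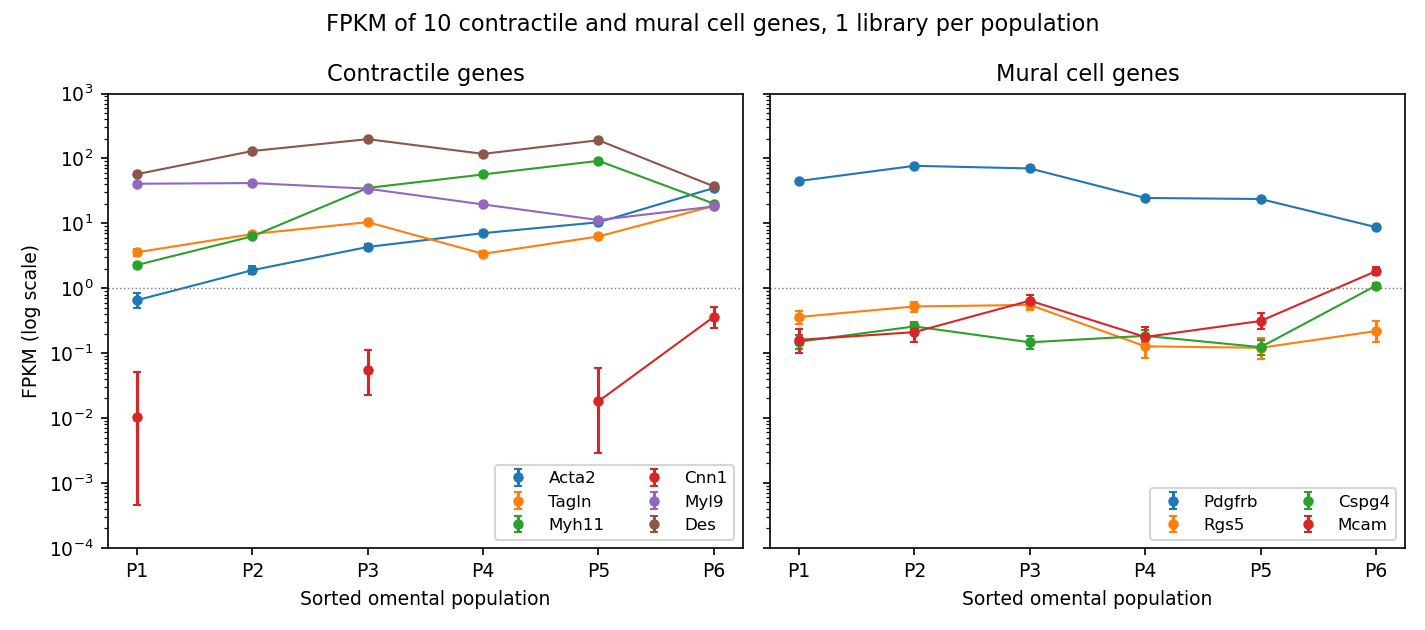
FPKM (log scale) of the 6 contractile genes (left) and the 4 mural cell genes (right) in P1–P6, 1 library each, with bars for the 95% counting interval, often smaller than the point. The dotted line is at 1 FPKM, and *Cnn1* is not drawn in P2 and P4, where it was listed at 0. *Acta2* ranged from 0.655 in P1 to 35.0 in P6, *Myh11* was highest in P5 at 91.8, and *Pdgfrb* was highest in P2 at 76.9.

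Among the contractile genes, *Acta2* (chr19:34241090-34255590, minus strand, in GENCODE M21 on GRCm38, as for the positions that follow) encodes smooth muscle α-actin, the thin filament actin of smooth muscle and myofibroblasts. Its FPKM was 0.655, 1.90 and 4.32 in the CD105+ populations P1, P2 and P3, 7.06 and 10.4 in the CD105- populations P4 and P5, and 35.0 in P6. It was the one gene of the 10 whose value increased at every step in this order, as it did for 848 of the 12904 genes that reached 1 FPKM somewhere (6.57%). P6 exceeded P5 by 3.37 times (95% counting interval 3.14–3.62) and P1 by 53.4 times (41.5–69.4). The neighbours P4 and P5 were the closest pair, with P5 at 1.47 times P4 (1.34–1.61). *Acta2* was a minor actin throughout: it made up 0.0371% of the summed FPKM of 6 actin genes in P1 and 1.71% in P6, the remainder being almost entirely the cytoplasmic actins *Actb* and *Actg1*.

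*Myh11* (chr16:14194535-14291372, minus strand), the myosin heavy chain of smooth muscle, had another order. P1 and P2 held 2.28 and 6.31 FPKM, P3 held 35.1, P4 and P5 held 56.6 and 91.8, and P6 held 20.1. P5 was thus highest and P1 lowest, with a ratio of 40.2 (37.5–43.3), and the 3 populations richest in *Myh11* were P5, P4 and P3. P6, where *Acta2* peaked, held 0.219 times the *Myh11* of P5 (0.212–0.226). Among the 4 class II heavy chain genes *Myh9*, *Myh10*, *Myh11* and *Myh14*, *Myh11* accounted for 3.56%, 7.60% and 28.5% of the summed FPKM as ALDH activity decreased from P1 through P3, for 34.5% and 44.4% in P4 and P5, and for 11.5% in P6. In P5 its level was 0.888 times that of *Myh9*, the main non-muscle heavy chain, against 0.0396 times in P1.

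*Tagln* (transgelin or SM22α, chr9:45929619-45936058, minus strand) encodes an actin-binding protein used as an early marker of smooth muscle. Values of 3.58, 6.84 and 10.4 FPKM were measured from P1 through P3, 3.39 and 6.27 in P4 and P5, and 18.5 in P6. P6 was highest, 1.78 times P3 (1.62–1.95), and P4 and P1 were lowest. Within the CD105+ cells the level was higher at lower ALDH activity, and P5 was likewise above P4, by 1.85 times (1.60–2.15). *Tagln* contributed between 1.23% (P4) and 9.86% (P6) of the summed FPKM of the 3 transgelin genes, with *Tagln2* as the main paralog. Its annotated exons share 877 bases with the antisense transcript Gm48529 and 108 bases with *Pcsk7* (5.03 to 8.78 FPKM), and since strand-specific counting is not stated, reads from these cannot be told apart there.

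*Cnn1* (calponin 1), a marker of differentiated smooth muscle that restrains actomyosin, was close to the limit of detection. It was listed at 0 in both intermediate-ALDH populations, P2 and P4, at 0.0105, 0.0553 and 0.0181 FPKM in P1, P3 and P5, and at 0.363 in P6. P6 stood above the rest, at 6.56 times P3 (2.92–18.4), on about 29 and 7 reads. At this depth 3 reads would give 0.0223 FPKM in P2 and 0.0235 in P4. *Cnn1* was thus not detected there, and absence cannot be told apart from a level below these values. The paralogs *Cnn2* and *Cnn3*, which are not restricted to muscle, were at 39.6 to 62.8 and 102 to 429 FPKM. *Cnn1* made up at most 0.138% of the summed calponin FPKM.

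*Myl9* (chr2:156775420-156781658, plus strand), a regulatory light chain of smooth muscle and non-muscle myosin, ran the other way. CD105+ cells held 40.7 (P1), 41.7 (P2) and 34.2 FPKM (P3), CD105- cells 19.5 (P4) and 11.2 (P5), and P6 18.2. The CD105+ populations were all above the CD105- ones and P6. P1 and P2 did not differ beyond counting error (ratio 0.976, 0.919–1.04), whereas P2 exceeded P5 by 3.71 times (3.40–4.06). *Myl9* gave 10.6% to 13.0% of the summed FPKM of *Myl9*, *Myl12a* and *Myl12b* in P1–P3 and 2.93% to 5.01% in P4–P6.

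*Des* (chr1:75360329-75368579, plus strand) encodes desmin, the intermediate filament of muscle, pericytes and reticular fibroblasts, and was the most abundant of the 10 genes in every population. Its FPKM was 57.2 at high ALDH activity (P1), 130 and 117 at intermediate activity (P2 and P4), 198 and 191 at low activity (P3 and P5), and 37.1 in P6. In P3 and P5 this placed it above 98.7% of all genes. The 2 ALDH-low populations P3 and P5 were highest and differed by 1.04 times (1.02–1.05), an order that turned under quantile normalization (0.99). P6 was lowest, with P3 at 5.34 times its level (5.17–5.52). *Des* made up 3.41%, 8.94%, 14.0%, 8.37%, 15.4% and 3.34% of the summed FPKM of *Des*, *Vim*, *Synm* and *Nes* in P1 to P6, most of the rest being vimentin. The antisense gene Gm15179, which shares 220 exon bases with *Des*, was at no more than 1.36 FPKM.

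**Figure D2:**
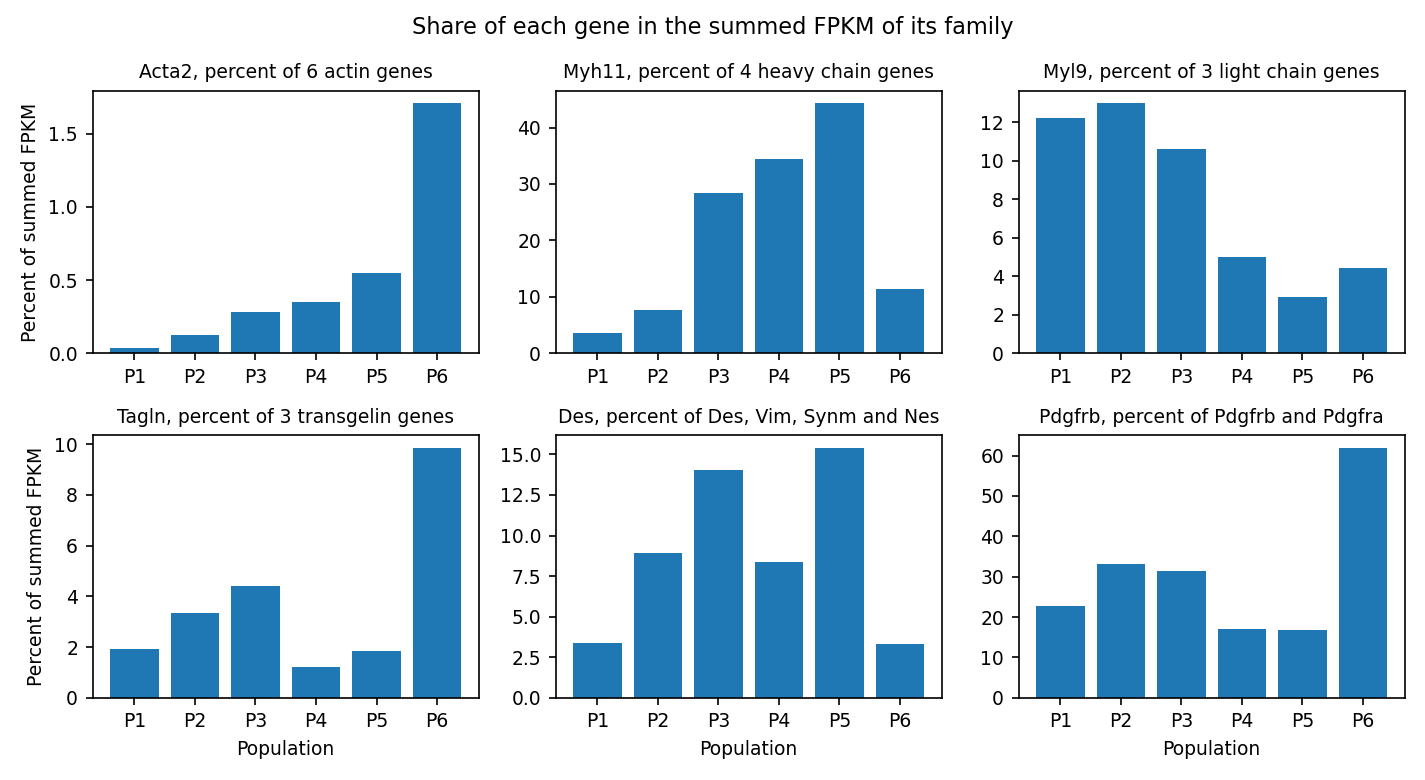
Percent of the summed FPKM of each family (y axis, from 0, a different range in each panel) contributed by 6 of the genes in P1–P6, 1 library each. *Myh11* reached 44.4% of the 4 heavy chain genes in P5 while *Acta2* stayed at or below 1.71% of the 6 actin genes, and *Pdgfrb* made up 62.0% of the 2 PDGF receptor genes in P6.

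Among the mural genes, *Pdgfrb* encodes the PDGF-B receptor of pericytes, smooth muscle and many fibroblasts. Levels were 44.8, 76.9 and 70.0 FPKM from P1 through P3, 24.6 and 23.7 in P4 and P5, and 8.74 in P6. The values formed 3 levels: the CD105+ populations highest, P4 and P5 lower and nearly equal (P4 over P5 1.04, 1.01–1.07), and P6 lowest at 0.114 times P2 (0.108–0.119). *Pdgfrb* was 16.9% to 33.3% of the sum of both PDGF receptor transcripts in P1–P5. In P6 it was 62.0%, where *Pdgfra*, on which P6 was gated low, was at 5.36 FPKM.

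*Rgs5* encodes a regulator of G protein signalling and is a standard pericyte marker. P1, P2 and P3 had 0.361, 0.523 and 0.553 FPKM, P4 and P5 had 0.127 and 0.121, and P6 had 0.219, on about 29 to 130 reads. P2 and P3 were highest and did not differ beyond counting error (ratio 0.946, 0.739–1.23), and the same held for P4 and P5 (1.05, 0.610–1.83).

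*Cspg4*, which encodes the NG2 proteoglycan of pericytes and immature glia, was listed at 0.150, 0.258 and 0.147 FPKM in the CD105+ cells (P1 to P3), 0.185 and 0.124 in P4 and P5, and 1.09 in P6. P6 exceeded P2, the next highest, by 4.25 times (3.43–5.25). *Mcam*, which encodes the adhesion molecule CD146 of pericytes, endothelium and smooth muscle, was at 0.160, 0.210 and 0.642 FPKM in these, 0.177 and 0.313 in P4 and P5, and 1.83 in P6. P6 was 2.84 times P3 (2.25–3.66), and P3 was 3.05 times P2 (2.08–4.59). Both genes were low in all CD140a+ populations.

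For the comparison of P6 with the rest, a gene was counted as higher when P6 was at or above 1 FPKM and at least 2 times each of the other 5 populations, a rule of size and not a test. *Acta2*, *Cspg4* and *Mcam* met it, as did 832 of the 12904 genes considered (6.45%). *Cspg4* and *Mcam* entered the count solely through their P6 value, so *Acta2* was the one such gene of the 6 that reached 1 FPKM in a CD140a+ population. *Tagln* did not meet the rule, with P6 1.78 times P3. A gene was counted as lower when each of the other 5 populations was at or above 1 FPKM and at least 2 times P6, and *Pdgfrb* met this, as did 3.43% of genes. *Myh11*, *Myl9* and *Des* were on neither side, since for *Myh11* the P6 value lay between P2 and P3 and for *Myl9* between P5 and P4, while for *Des* it was 1.54 times below P1 (1.49–1.60).

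Other smooth muscle genes were split in the same comparison. Of 24 listed genes, 18 were considered and 3 were higher in P6: *Tpm2* (β-tropomyosin) at 71.4 FPKM against at most 25.8 elsewhere, *Actn1* (α-actinin) at 38.0 against at most 19.0, and *Pdlim3*, a Z-line protein, at 19.0 against at most 1.15. *Mylk*, the myosin light chain kinase, was the one counted as lower, at 1.08 FPKM against 5.23 to 30.9. *Lmod1* (0.130 FPKM in P6 against 0.378 to 2.09) and *Ppp1r14a* (listed at 0 against 0.933 to 8.12) were also more than 2 times below each other population, but were not counted because some of these were under 1 FPKM. Over all genes, 6.45% were counted as higher in P6 and 3.43% as lower. The median log2 ratio of P6 to the mean of the rest was 0.26 for the list and 0.08 for all genes. *Actg2*, the enteric smooth muscle actin, was listed at 0 in all 6 libraries. *Tpm2*, *Smtn*, *Ppp1r12b*, *Flna* and *Pdlim3* increased at every step from P1 to P6 as *Acta2* did, 5 of the 18 listed genes that reached 1 FPKM, beside 6.57% of all such genes. The listed genes with the highest single values, *Csrp1*, *Cald1* and *Tpm1*, ranged over 97.0 to 201, 103 to 161 and 52.1 to 130 FPKM.

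Of 16 other pericyte genes, 11 were considered in P6. *Tbx18*, a transcription factor of mural cells and mesothelium, was higher, at 5.10 FPKM against 0.397 to 0.807. *Notch3*, *Vtn* and *Steap4* were lower: *Notch3*, the Notch receptor of mural cells, was at 0.258 FPKM against 1.02 to 5.84, and *Steap4* at 36.9 against 182 to 297. Over all genes, 6.45% were counted as higher and 3.43% as lower. The median log2 ratio was -2.01 for the list and 0.08 for all genes. Most genes of the list thus lay on the same side as *Pdgfrb* and on the other side from *Cspg4* and *Mcam*.

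Among the regulators, *Srf* was between 16.4 and 25.5 FPKM in all libraries. *Myocd*, which encodes myocardin, was listed at 0 in P1 and P2, at no more than 0.00357 FPKM in P3–P5 and at 0.555 in P6. The myocardin-related factor *Mkl1* was at 8.97 to 12.5 FPKM, and *Klf4*, *Tgfbr2* and *Yap1* were the most abundant of the list, *Klf4* with 234 to 398 FPKM. *Fhl2*, which encodes a LIM-domain cofactor of SRF, was at 0.0198 FPKM in P6 against 0.594 to 6.54 elsewhere, but was not counted as lower because P5 was under 1 FPKM. By the rule, 0 of the 13 regulators considered were counted as higher or lower in P6, beside 6.45% of all genes higher and 3.43% lower. For a list of 13 genes, 0 is near these shares.

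P6 also carried transcripts of other cell types. All 11 mesothelial genes measured reached 1 FPKM in P6, where they summed to 3366 FPKM, against 79.5 to 162 in the CD105+ populations and 1090 and 875 in P4 and P5. The 10 pancreatic acinar genes summed to 1813 FPKM in P6, to 1241 and 230 in the intermediate-ALDH P4 and P2, to 147 and 23.2 in the low-ALDH P5 and P3, and to 4.24 in P1. Of 14 endothelial genes, 4 reached 1 FPKM in P6 and the sum was 119 FPKM, mostly *Esam* and *Kdr*, while the defining genes *Pecam1* and *Cdh5* were at 0.992 and 0.343. Of 10 adipocyte genes, 9 reached 1 FPKM in P6, against 3 or 4 elsewhere, and the sum of the list was 559 FPKM in P6 and 191 to 361 in P1–P5. Most of the sum in P1–P5 was *Fabp4*, at 141 (P2) to 349 (P5) FPKM there and 179 in P6. By the rule, 7 of the 9 adipocyte genes considered were higher in P6, beside 6.45% of all genes, among them *Cfd* (114 FPKM against at most 0.337). Of 11 lymphoid and myeloid genes, 4 reached 1 FPKM in P6, against 2 to 5 elsewhere, with a sum of 48.0 FPKM against 12.7 to 31.1. *Acta2* and the mesothelial, acinar and endothelial sums were all highest in P6 and lowest in P1. Single endothelial genes did not all follow their sum. *Pecam1* and *Cdh5* were lowest in P4, at 0.0672 and 0.0315 FPKM, and *Plvap* was highest in P5, at 26.8. The adipocyte sum and the lymphoid and myeloid sum were also highest in P6, but lowest in P2 and P5. The part of these transcripts in the levels of *Acta2*, *Tagln*, *Cspg4* and *Mcam* was not tested.

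**Figure D3:**
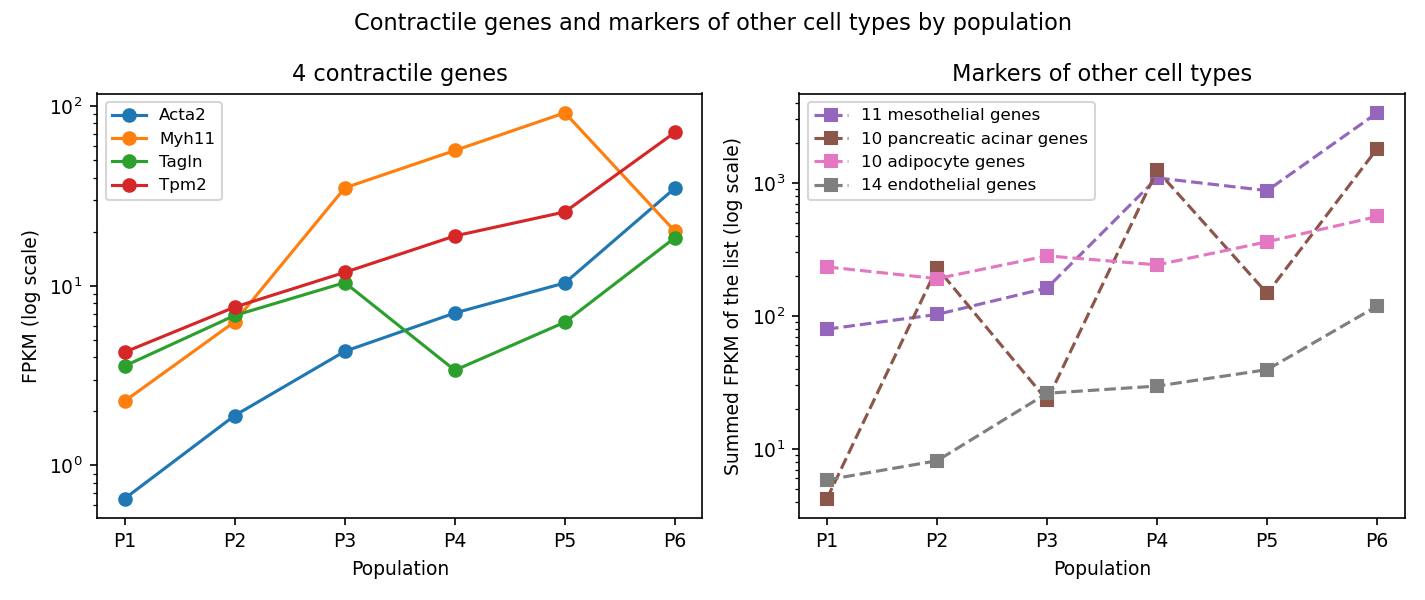
FPKM of *Acta2*, *Myh11*, *Tagln* and *Tpm2* (left) and summed FPKM of 4 lists of genes that mark other cell types (right), both on log scales, in P1–P6 with 1 library each. *Acta2*, *Tagln* and *Tpm2* and all 4 sums were highest in P6, whereas *Myh11* was highest in P5, and the acinar sum was higher in P2 and P4 than in P3 and P5.

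The 5 pairs of CD140a+ populations that differ in 1 gate share libraries (P2 is in 3 of them), so they are given side by side and not as separate evidence. Here a gene was considered when either population reached 1 FPKM, which held for 6 of the 10 genes in each pair: *Acta2*, *Tagln*, *Myh11*, *Myl9*, *Des* and *Pdgfrb*.

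With high against intermediate ALDH activity among CD105+ cells (P1 against P2), 3 of the 6 genes were at least 2 times lower in P1, as were 4.5% of all 11803 genes considered, and none was higher (background 1.05%). *Myh11* in P1 was 0.362 times P2 (0.333–0.392). *Acta2* was lower by 2.90 times (2.17–3.88) and *Des* by 2.27 times (2.22–2.33). *Tagln* at 1.91 times and *Pdgfrb* at 1.71 times lay on the same side without reaching the fold. The median log2 ratio was -1.05 over the 6 genes and -0.05 over all. Of 16 other smooth muscle genes considered, 7 were lower in P1 and none higher, among them *Mylk* (5.63 against 22.8 FPKM), *Ppp1r14a* (1.14 against 8.12) and *Csrp1* (97.0 against 199). Of 10 other pericyte genes, 5 were lower in P1, namely *Kcnj8*, *Abcc9*, *Ndufa4l2*, *Foxs1* and *Tbx2*. *Kcnj8* and *Abcc9*, which encode the 2 subunits of the vascular ATP-sensitive potassium channel, were at 3.32 and 7.77 FPKM in P1 against 15.2 and 25.3 in P2. The mesothelial sum was 79.5 in P1 and 103 in P2, the acinar sum 4.24 and 230.

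With intermediate against low ALDH activity, the CD105+ cells (P2 against P3) had *Acta2* and *Myh11* past the fold. *Acta2* was 2.28 times lower in P2 (1.94–2.69) and *Myh11* 5.56 times (5.32–5.80), beside 2.75% of genes lower and 1.16% higher. In the CD105- cells (P4 against P5) none of the 6 genes passed the fold, beside 4.17% of genes higher and 1.57% lower. There *Acta2* was 1.47 times lower in P4, *Myh11* 1.62 times (1.59–1.65) and *Des* 1.62 times (1.59–1.65), and *Myl9* was 1.74 times higher (1.58–1.92). Each of the 6 genes lay on the same side of 1 in both pairs: *Acta2*, *Tagln*, *Myh11* and *Des* were higher at low ALDH activity, *Myl9* and *Pdgfrb* at intermediate activity, the last by 1.10 and 1.04 times. None of 16 other smooth muscle genes passed the fold between P2 and P3, and *Mylk* alone did between P4 and P5 (5.23 against 13.6 FPKM). Of 10 other pericyte genes, none passed the fold between P2 and P3. Between P4 and P5, 3 of 9 were higher in P4 (*Vtn*, *Anpep* and *Ednra*), beside 4.17% of all genes. Another 3 were lower (*Abcc9*, *Foxs1* and *Tbx2*), beside 1.57%. The acinar sum was higher in P2 and P4 than in P3 and P5, and all 10 acinar genes passed the fold in both pairs. Its part in these ratios was not tested.

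With CD105 at matched ALDH activity, the 6 genes divided in both directions. At intermediate activity, *Tagln* (2.02, 1.75–2.34), *Myl9* (2.14, 1.99–2.30) and *Pdgfrb* (3.13, 3.05–3.21) were higher in P2 than in P4, beside 5.1% of genes. *Acta2* (3.72 times, 3.20–4.36) and *Myh11* (8.97 times, 8.60–9.36) were lower in P2, beside 7.94% of genes. At low activity, *Myl9* (3.04, 2.78–3.33) and *Pdgfrb* (2.96, 2.88–3.04) were higher in P3 than in P5, beside 7.55% of genes, and *Acta2* (2.40 times, 2.16–2.68) and *Myh11* (2.62 times, 2.56–2.67) were lower, beside 6.5%. *Des* differed by 1.11 times at intermediate and 1.04 times at low activity. The *Tagln* ratio of P2 to P4 fell to 1.99 with 0.1 FPKM added to each value. Scaling to *Gapdh* took *Acta2* (0.606) and *Myh11* (0.556) within the fold in P3 against P5 and raised *Tagln* there from 1.66 to 2.42. *Rgs5*, below 1 FPKM throughout, was 4.11 times higher in P2 than in P4 (2.74–6.41) and 4.58 times higher in P3 than in P5 (3.05–7.12).

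The other smooth muscle genes divided in the same pairs. *Lmod1*, *Synpo2*, *Mylk*, *Ppp1r14a*, *Ramp1* and *Nexn* were higher in the CD105+ cells in both pairs. They were 6 of 17 considered in P2 against P4 (5.1% of all genes) and 6 of 18 in P3 against P5 (7.55% of all genes). *Mylk* was at 22.8 and 30.9 FPKM in P2 and P3 against 5.23 and 13.6 in P4 and P5. *Tpm2* and *Ldb3* were lower in CD105+ cells in both pairs and *Smtn* in P2 against P4 alone (26.5 against 53.0 FPKM; 34.5 against 67.7 in P3 and P5). Median log2 ratios were -0.14 and -0.16 for the list and -0.08 and -0.09 for all genes. Among other pericyte genes, 5 of 10 were higher in P2 than in P4 and 6 of 10 in P3 than in P5, beside the same shares of all genes. None was lower, beside 7.94% and 6.5% of all genes. *Notch3* (4.11 and 5.84 FPKM against 1.23 and 1.02), *Ndufa4l2* (2.48 and 1.71 against 0.179 and 0.106), *Tbx2* and the endothelin receptor *Ednra* were in both counts. Median log2 ratios were 0.97 and 1.77 for this list. Mesothelial sums were lower in the CD105+ cells (103 and 162 FPKM against 1090 and 875), as were acinar sums, and their part in these ratios was not tested.

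**Figure D4:**
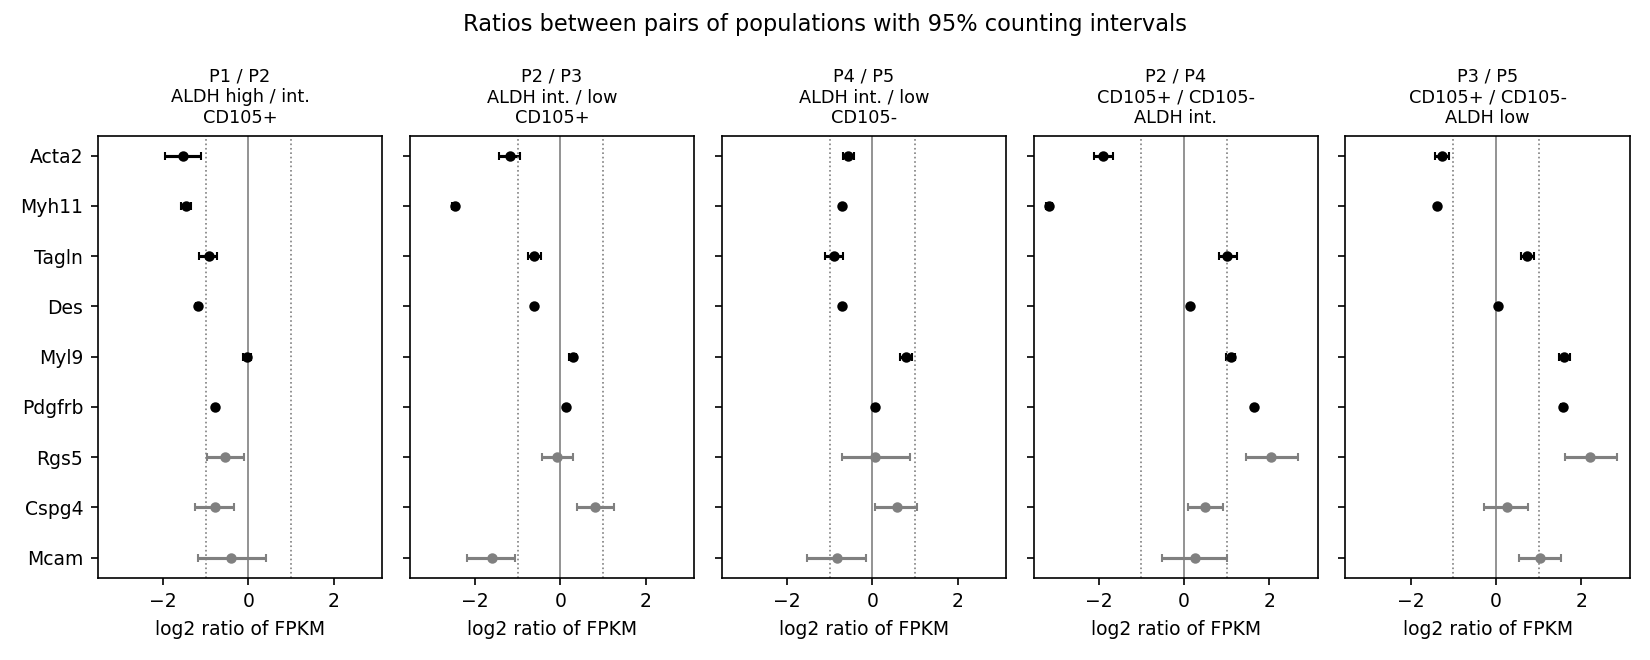
log2 ratios of FPKM for 9 of the genes in the 5 pairs of CD140a+ populations, 1 library each, with bars for the 95% counting interval and dotted lines at 2 times in either direction. Grey points are genes below 1 FPKM in both populations, and *Cnn1* is left out because of its zeros. *Acta2* and *Myh11* lay left of 0 in all 5 pairs, and *Myl9*, *Pdgfrb* and *Rgs5* lay right of 1 in both comparisons of CD105+ with CD105- cells.

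**Figure D5:**
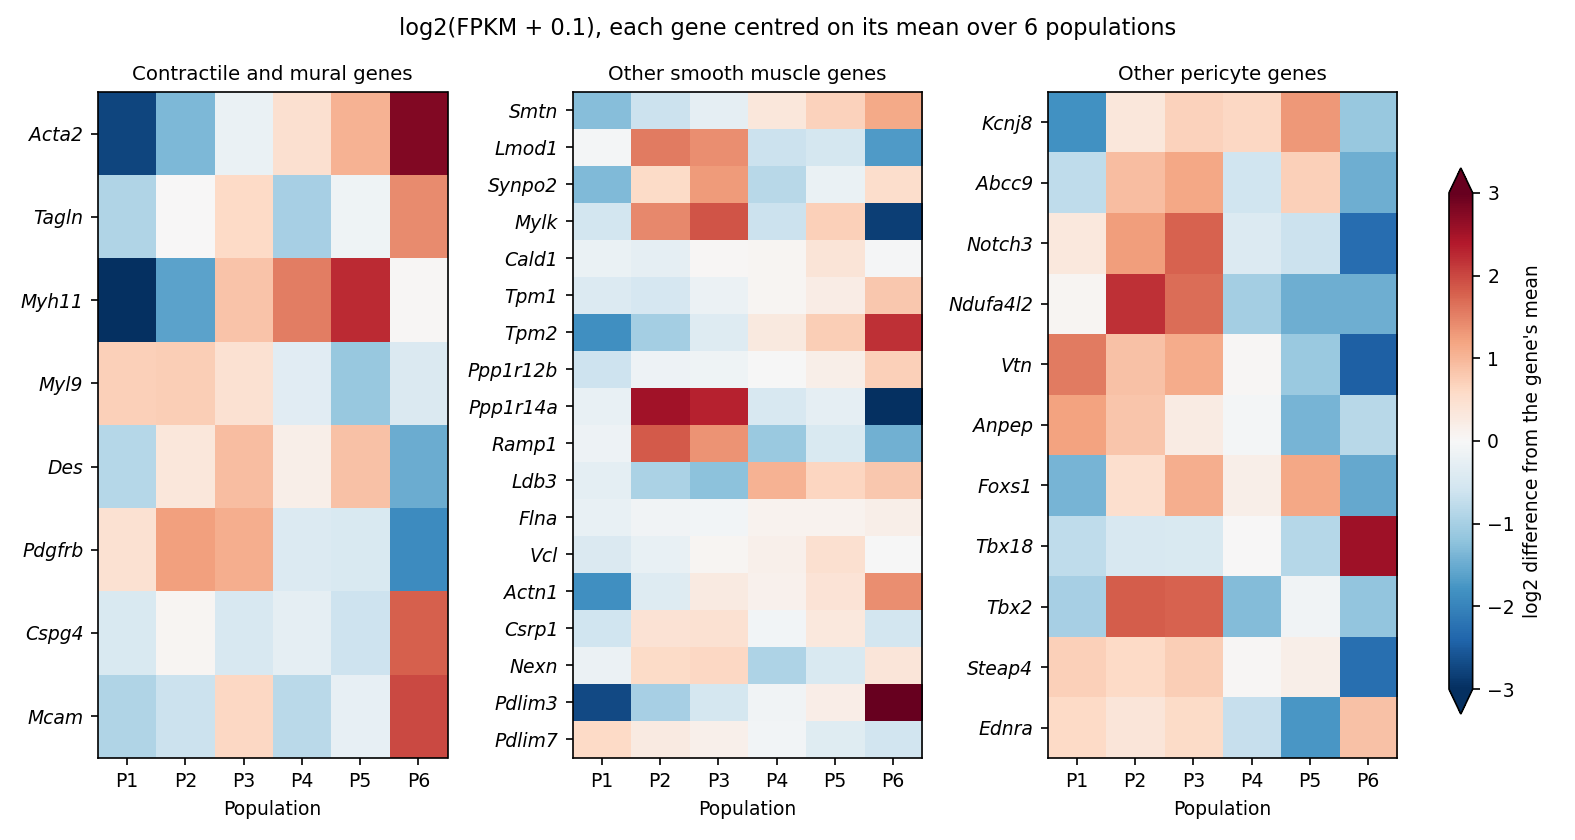
log2(FPKM + 0.1) centred on each gene's mean over the 6 populations (colour, clipped at 3) for the 8 genes described here and the other smooth muscle and pericyte genes that reached 1 FPKM in any population, 1 library per column. *Acta2*, *Smtn*, *Tpm2* and *Pdlim3* deepened from P1 to P6, whereas *Mylk*, *Ppp1r14a*, *Ramp1* and *Notch3* were highest in P2 and P3.

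Genes of the PDGF system were measured beside the receptor. *Pdgfb*, the ligand of PDGFRβ made mainly by endothelium, was at 0.083 to 0.315 FPKM. *Pdgfd*, another ligand of this receptor, was at 12.3 to 22.7 FPKM. *Pdgfa* and *Pdgfc*, which act mainly through PDGFRα, were at 6.49 to 17.6 and 1.20 to 5.74 FPKM. *Pdgfrb* itself lay above both its ligands in P1–P5, and below *Pdgfd* in P6.

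For *Acta2*, *Myl9*, *Des*, *Pdgfrb*, *Mcam* and *Myh11*, the genes with the nearest patterns were ranked by the root mean square difference of centred log2(FPKM + 0.1) over the 6 populations. Those of *Acta2* were *4932438H23Rik*, *Gm996*, *Aqp2*, *Rcsd1* and *Tagap*, at differences of 0.24 to 0.30. The neighbours of *Myl9* were *Nkx3-2*, *Fam19a5*, *Loxl4*, *D630045J12Rik* and *Pde5a*, at 0.07 to 0.11. For *Des* they were *D030025P21Rik*, *Ager*, *Cdkn2b*, *Tchh* and *Iffo2* (0.14 to 0.20), and for *Pdgfrb* *Plcl2*, *Igf1*, *Vwa1*, *Pcdhb10* and *Olfml3* (0.11 to 0.18). For *Mcam* they were *Gm13889*, *Prkag3*, *Hist2h4*, *Tspan15* and *Snora17* (0.28 to 0.33). For *Myh11*, added after its values were seen, the nearest were *Il34*, *Ptger2*, *Gprc5c*, *Fcgr2b* and *Tmem37* (0.20 to 0.34), and *Il34* ran from 2.69 FPKM in P1 to 99.4 in P5. The size of such a difference depends on the range of the pattern, which was 3.71 times for *Myl9* and 53.4 times for *Acta2*. The differences are therefore not compared between the genes. Over 6 populations and 12904 genes, no test of these likenesses was made.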

How the data were processed

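RNA of FACS-sorted omental populations P1–P6 (1 library each) was sequenced by the authors as single 76-base reads from an NEBNext Ultra library. The submitters' processing notes name TopHat2 2.0.7, Cufflinks 2.1.1 and mm10. The deposited values are FPKM per gene. No counts were used, and strandedness and pooling of mice are not given in the sources used here. Symbols listed in several of the 23847 rows were summed. Depth was estimated from the steps of low values in 3316 single-transcript genes (52.7% to 60.0% of values below 10 reads lay within 0.05 of a whole read, 10% by chance). Reads per gene then followed from the longest coding transcript (GENCODE M21), and exact Poisson and binomial 95% intervals from those reads, so intervals rest on assumed lengths. Library totals thus limit precision as given in the text. Genes, lists and rules were chosen with earlier results of these data known. Every one of the 10 genes is named. From the other lists the genes past the fold in the comparison described and the 3 most abundant were eligible, with values for some. *Fhl2*, *Lmod1* and *Ppp1r14a* in the P6 comparison, *Mkl1* and the genes increasing from P1 to P6 were named after their values were seen. The fold rule was 2 times with a minimum of 1 FPKM. The script was tested on simulated data. Scripts ran in Python 3.11.15 with pandas 2.3.3, numpy 2.4.6 and scipy 1.17.1, and figures were drawn with matplotlib 3.10.9. Alternatives tried were other scalings, minimums, folds and added constants, and leaving out each population. Of the listed symbols, 2 were not found.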

Additional observations from a re-analysis of the deposited data

Results flagged for a closer look

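None of the 10 genes changed in opposite directions, beyond counting error, under the same contrast in 2 settings. Among the 24 other smooth muscle and 16 other pericyte genes, 5 did. The share over all genes was not computed, so this count has no background beside it. With 1 library per population, the difference between the settings was not tested for any of the 5. The direction stayed opposite under all 4 other scalings. Intermediate over low ALDH activity gave *Ramp1* ratios of 1.43 in CD105+ and 0.576 in CD105- cells. *Notch3* had 0.703 and 1.20. For *Vtn* the ratios were 0.839 and 2.30, and for *Ednra* 0.861 and 2.33. CD105+ over CD105- cells gave *Tbx18* ratios of 0.676 at intermediate and 1.39 at low ALDH activity.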

How the results depend on the processing

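Each population had 1 library, so every value rests on it. No paired analysis was possible because no group of cells was sequenced more than once. Of 392 ratios of the 10 genes (56 ratios under 7 settings) 5 changed side of 1, each lying near 1 as deposited or below 1 FPKM, and 19 crossed the fold. Counts of the 10 genes moved as follows. Divided by *Gapdh*, 0 were lower in P3 than in P5. With a minimum of 0.1 FPKM, 4 were higher in P3 than in P5 and 1393 genes were higher in P6. With a minimum of 5 FPKM, 1 was higher in P6, of 453 genes, and 1 lower in P2 than in P3. With no minimum, 1626 genes were higher in P6, and of the 10, 1 was higher in P1 than in P2, 4 lower in P2 than in P3, 1 lower in P4 than in P5 and 5 higher in P3 than in P5. At 1.5 times, 1413 genes were higher in P6, and of the 10, 5 were lower in P1 than in P2, 4 lower in P2 than in P3, and 1 higher and 3 lower in P4 than in P5. At 3 times, 470 genes and 1 other smooth muscle gene were higher in P6, and of the 10, 0 were lower in P1 than in P2, 1 lower in P2 than in P3, 1 higher in P2 than in P4, and 1 higher and 0 lower in P3 than in P5. With 1 FPKM added, 1 was higher in P6, of 557 genes, and 1 lower in P2 than in P3. For the pairs, shares over all genes were not computed at these settings, so the counts of the 10 there have no background beside them. A stricter minimum or fold leaves fewer genes by construction. *Gapdh* was at 224 FPKM in P3 and 326 in P5, so dividing by it raises every ratio of P3 to P5 by the same factor. Why *Gapdh* itself differed was not tested. An added constant draws ratios towards 1 by construction, most of all for low values. Leaving out any of P1 to P5 moved none of the P6 counts past 1.5 times.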
